A study of Rattus norvegicus with 10 samples.

Results

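The levels of 5 complement genes were followed in 10 rat lacrimal glands, each hybridised to 1 Affymetrix rat array: C1qb, C1r, C1s, C3 and Cfd. They were matched by gene symbol in the platform annotation, and make up 5 of 4736 genes with a probe set of a single symbol. They have 7 probe sets, 1 or 2 per gene, of 8740 left after array controls were removed. The genes were selected on the intensities of these same glands, because several were higher in denervated glands once denervated gland 1 was left out. Differences between denervated and control glands are therefore given as a description, with no test.

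Lacrimal glands secrete the watery layer of the tear film, and their parasympathetic fibres arrive through the greater superficial petrosal nerve. The denervated glands (n = 5) were collected 7 days after that nerve was cut. Control glands were 3 contralateral glands from the same time, 1 gland 7 days after a sham operation and 1 gland of an unoperated animal, which are each a single gland. The titles call the 3 glands contralateral while their descriptions put them on the operated side, and the titles were followed. The sources used here do not give strain, sex, age or the number of animals, and a p-value here reflects the scatter of these glands alone, which may in part be technical.

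Complement is a cascade of plasma and tissue proteins that tags microbes and cell debris for removal. The classical pathway starts when C1q binds a target and the attached proteases C1r and C1s cut the next components. All pathways meet at C3, whose cleavage releases a small inflammatory peptide and leaves a fragment that coats the target, and the alternative pathway amplifies C3 cleavage through the protease factor D, the product of Cfd. Liver makes most circulating complement, macrophages are the main source of C1q, fibroblasts and epithelia make C1r, C1s and C3, and fat cells make factor D, which was first named adipsin.

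The glands did not form a uniform set. Dnase1, a secreted nuclease, had intensities from 329146 to 721537 in contralateral 1, sham and denervated 1, and from 762 to 15271 in the other 7 glands. These 3 Dnase1-rich glands also had the lowest levels of clusterin, Clu, a secreted inhibitor of complement lysis, from 11467 to 17647 against 87526 to 301996 elsewhere. The acinar markers Aqp5, a water channel, and Rab3d, a GTPase of secretory granules, were well above the floor in every gland, from 6258 to 18937 and from 3102 to 7758. Median intensity over all probe sets ran from 554 to 979. Whether these 3 samples hold the same tissue as the other 7 was not tested, and the labels name 1 tissue for all. Because they include 1 denervated and 2 control glands, differences between denervated and control glands are also given without them.

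Upstream sequences are shown for the 4 members found in the RefSeq promoter table of the GRCr8 rat assembly, since these genes were higher in the same glands. Each is the 250 bases before the annotated start, written 5′ to 3′ along the gene, and capitals mark matches to the motifs searched. Their positions are chr5:154407828-154408077 (minus strand) for C1qb, chr4:159098763-159099012 (plus strand) for C1r, chr9:2201340-2201589 (minus strand) for C3 and chr7:10465497-10465746 (minus strand) for Cfd.
C1qb: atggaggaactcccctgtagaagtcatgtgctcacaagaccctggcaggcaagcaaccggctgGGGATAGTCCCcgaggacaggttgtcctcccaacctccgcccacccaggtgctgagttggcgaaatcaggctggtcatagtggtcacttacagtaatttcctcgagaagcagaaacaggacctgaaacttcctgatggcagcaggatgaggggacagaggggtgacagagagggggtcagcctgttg
C1r: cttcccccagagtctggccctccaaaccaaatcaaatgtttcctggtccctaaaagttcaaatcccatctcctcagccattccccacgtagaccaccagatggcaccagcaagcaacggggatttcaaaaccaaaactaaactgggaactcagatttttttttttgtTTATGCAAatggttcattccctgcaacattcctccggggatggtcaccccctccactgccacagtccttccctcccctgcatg
C3: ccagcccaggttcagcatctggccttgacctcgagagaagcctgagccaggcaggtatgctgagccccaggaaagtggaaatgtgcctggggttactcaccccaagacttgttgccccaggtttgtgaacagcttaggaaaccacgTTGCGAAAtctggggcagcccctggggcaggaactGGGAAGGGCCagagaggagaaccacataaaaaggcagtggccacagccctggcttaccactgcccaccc
Cfd: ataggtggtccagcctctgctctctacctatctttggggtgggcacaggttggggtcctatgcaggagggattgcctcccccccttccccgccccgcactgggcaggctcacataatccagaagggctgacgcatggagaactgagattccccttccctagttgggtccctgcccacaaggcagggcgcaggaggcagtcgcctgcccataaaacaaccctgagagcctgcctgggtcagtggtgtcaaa

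A set of 5 motifs was searched on both strands, except TATAAA, which was read on the gene's strand only. TTGCNNAA, a form of the C/EBP site, lay from 104 to 97 bases upstream in C3 and, on the opposite strand, from 83 to 76 in C1r. It was present in 9.22% of the 33469 promoters of the table. GGGANNNNCC, a form of the NF-kappa-B site, lay from 69 to 60 bases upstream in C3 and in 2 overlapping matches from 187 to 177 in C1qb, and 16.4% of all promoters held it. TTCNNNGAA, the STAT site, GAAANNGAAA, the interferon-stimulated element, and TATAAA were in none of the 4 windows and in 7.67%, 3.41% and 8.06% of all promoters. The Cfd window held no match. C1r and C1s are neighbours on chromosome 4 with 0 protein-coding genes between them.

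C1qb, which encodes the B chain of the C1q recognition molecule, was brighter in denervated glands 2 to 5 than in any other gland at both of its probe sets. At X71127_at the denervated glands 1 to 5 had intensities of 2562, 7727, 10661, 6673 and 11378. Contralateral glands 1 to 3 had 1971, 4124 and 4820, the unoperated gland 2831 and the sham gland 4307. Denervated 1 lay inside the control range, and the lowest of the other denervated glands was 1.38 times the highest control. At X71127_g_at the denervated glands had 738, 4397, 4827, 3704 and 3343. The contralateral glands had 909, 1548 and 1704, the unoperated gland 1138 and the sham gland 1484. Here denervated 1 was the lowest of all 10 glands, while the other 4 were at least 1.96 times every control. Denervated glands averaged a log2 intensity of 12.76 ± 0.86 (SD, n = 5) at X71127_at, and controls averaged 11.75 ± 0.53 (SD, n = 5). The difference was 1.01 ± 0.39 (SE), and the second probe set differed by 1.12 ± 0.47 (SE).

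C1r encodes the protease that C1q activates first. Its probe set rc_AA799803_at had 1554, 10679, 4696, 4092 and 10695 in denervated glands 1 to 5. Contralateral glands had 1054, 2157 and 1841, the unoperated gland 1116 and the sham gland 1370. Denervated 2 and 5 stood above denervated 3 and 4, and all 4 stood above the controls, while denervated 1 was below 2 of the controls and above the other 3. Denervated minus control was 1.81 ± 0.47 (SE, n = 5 and 5) in mean log2 intensity, a 3.51-fold higher level.

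C1s encodes the protease that C1r activates and that cuts the following components. At D88250_at the denervated glands had 970, 6606, 4430, 4052 and 7813. The contralateral glands had 1579, 1948 and 1612, the unoperated gland 2185 and the sham gland 1491. Control glands were close together, with a log2 SD of 0.23 (n = 5), and denervated 1 was below all of them. Denervated 2 and 5 were again the brightest, and the mean log2 difference was 1.16 ± 0.46 (SE), or 2.23-fold.

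C3, the component that all pathways share, had its highest levels in denervated 2 to 5 at both probe sets. M29866_s_at gave 3909, 32018, 27193, 30784 and 20831 in denervated glands 1 to 5. It gave 4896, 11730 and 9225 in contralateral glands, 5360 in the unoperated and 1298 in the sham gland. The controls were spread over a wide range, and the 4 bright denervated glands were at least 1.78 times the highest of them. X52477_at gave 2955, 17993, 18971, 31375 and 10151 in denervated glands, 2339, 7978 and 8704 in contralateral glands, 3656 in the unoperated and 1826 in the sham gland. At this probe set denervated 5 was only 1.17 times contralateral 3, the closest approach of any member. Mean log2 differences were 1.84 ± 0.62 (SE) and 1.64 ± 0.58 (SE), or 3.58-fold and 3.12-fold.

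Cfd encodes factor D, the protease of the alternative pathway. At M92059_s_at the denervated glands had 409, 6178, 3242, 2336 and 8494. Contralateral glands had 210, 1358 and 1358, the unoperated gland 1017 and the sham gland 1444. Contralateral 1 and denervated 1 were the dimmest glands, and denervated 2 and 5 the brightest. Cfd averaged a log2 intensity of 11.43 ± 1.71 (SD, n = 5) after denervation and 9.80 ± 1.18 (SD, n = 5) in controls. The difference was 1.63 ± 0.75 (SE), or 3.10-fold.

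**Figure D1:**
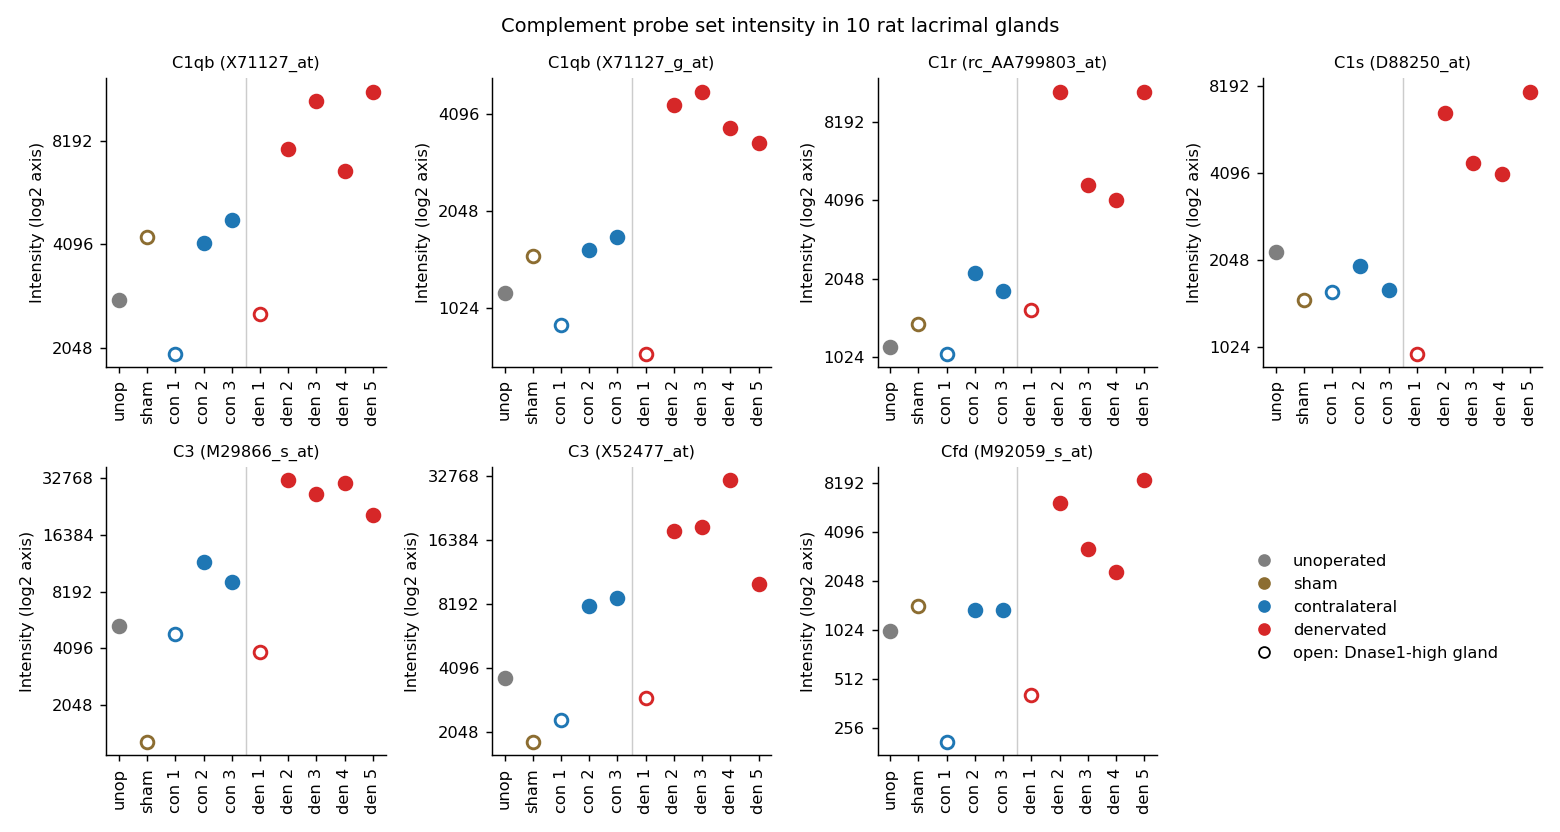
Intensity of the 7 complement probe sets (log2 axis) in each of the 10 glands, with 1 point per gland, coloured by group, and open points for the Dnase1-rich glands contralateral 1, sham and denervated 1. In every panel the filled red points, denervated 2 to 5, lie above all control glands, and the open red point, denervated 1, lies among or below them.

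Across the 7 probe sets, the mean log2 difference between all denervated and all control glands ran from 1.01 to 1.84, and all 7 were at least 1, which is 2-fold, against 5.82% of the 6118 probe sets tested. No member separated the 5 denervated from the 5 control glands (0 of 7, against 0.637% of probe sets). Without denervated 1, differences ran from 1.37 (C1qb) to 2.40 (C3), all 7 were at least 1 (8.04% of probe sets), and the 4 denervated glands lay above all 5 controls at 7 of 7 (3.79%). Without denervated 2 instead, 4 of 7 members were at least 1, and with a block for the Dnase1-rich glands 4 of 7. For those fits the share over all probe sets was not taken. The choice of members used these values, so nothing is read from these counts. Over all probe sets the median difference was -0.08, or -0.13 without denervated 1.

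Without all 3 Dnase1-rich glands every member still had the higher mean in denervated glands. Denervated 2 to 5 minus contralateral 2, contralateral 3 and unoperated gave 1.21 ± 0.29 and 1.48 ± 0.30 (SE, n = 4 and 3) for C1qb, 2.06 ± 0.41 for C1r, 1.54 ± 0.31 for C1s, 1.71 ± 0.29 and 1.52 ± 0.39 for C3 and 1.86 ± 0.43 for Cfd. These 7 glands did not overlap between groups at 7 of 7 probe sets, against 6.42% of all probe sets. Denervated 2 to 5 already lay above every control, so leaving out controls could not make them overlap. The choice of members used these values, and nothing is read from this count or from the higher means. Among the Dnase1-rich glands the direction was mixed. Denervated 1 minus the mean of contralateral 1 and sham was 0.37 for C1r and 0.63 and 0.52 for C3, but -0.19 and -0.65 for C1qb, -0.66 for C1s and -0.43 for Cfd, with 1 denervated gland and so no error. The part of the split between Dnase1-rich and other glands in the low complement levels of denervated 1 was not tested.

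The mean of the 2 Dnase1-rich control glands was below that of the other 3 controls at all 7 probe sets, although single glands overlapped. The gap was largest for C3, at -1.73 and -1.62 on the log2 scale, then Cfd at -1.16, and it ran from -0.45 to -0.31 for C1qb, C1r and C1s. For Cfd and C1qb only contralateral 1 was low. The sham gland had the highest Cfd of all controls, and at the C1qb probe sets its log2 intensity was 12.07 and 10.54 against means of 11.90 and 10.49 in the other 3 controls. For C3 the sham gland was the dimmest of all 10 glands at both probe sets.

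Set against the contralateral glands alone, the 7 members differed by 1.03 (C1qb, X71127_at) to 1.92 ± 0.89 (SE, n = 5 and 3; Cfd). All 7 were at least 1, against 7.73% of probe sets, and 0 of 7 separated the groups, against 2.19%. Against the unoperated and sham glands the same denervated glands differed by 0.99 ± 0.54 (C1qb) to 2.81 ± 0.75 (SE, n = 5 and 2; C3, M29866_s_at). Both comparisons share the denervated glands with the choice of members. Without contralateral 1, 3 of 7 members were at least 1 against the contralateral glands, and without denervated 2, 4 of 7. The share over all probe sets was not taken for these fits, so nothing is read from these counts. Contralateral 1 weighed most on Cfd, whose difference was 1.03 without it, while C3 then differed by 0.83 and 0.60, C1qb by 0.64 and 0.82, C1r by 1.35 and C1s by 1.14.

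Whether contralateral glands differed from glands with no cut nerve was the 1 comparison that did not enter the choice of members, and it was tested. No member passed, and limma called 0 of 6118 probe sets (0%) at an adjusted p under 0.05, with 299 at an unadjusted p under 0.05 and 0 of 7 members among them. The largest difference was at C3, 1.62 ± 0.82 (SE) at M29866_s_at and 1.08 ± 0.83 at X52477_at, contralateral higher (limma adjusted p = 0.967 and 0.981). The low C3 of the sham gland weighed on both. Cfd differed by -0.73 ± 1.11 (limma adjusted p = 0.981) and C1r by 0.38 ± 0.70 (adjusted p = 0.981). C1s and the C1qb probe sets lay between -0.08 and 0.04. With 3 glands against 2, standard errors of 0.59 to 1.11 mean that a 2-fold difference could not have passed the test for any member.

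**Figure D2:**
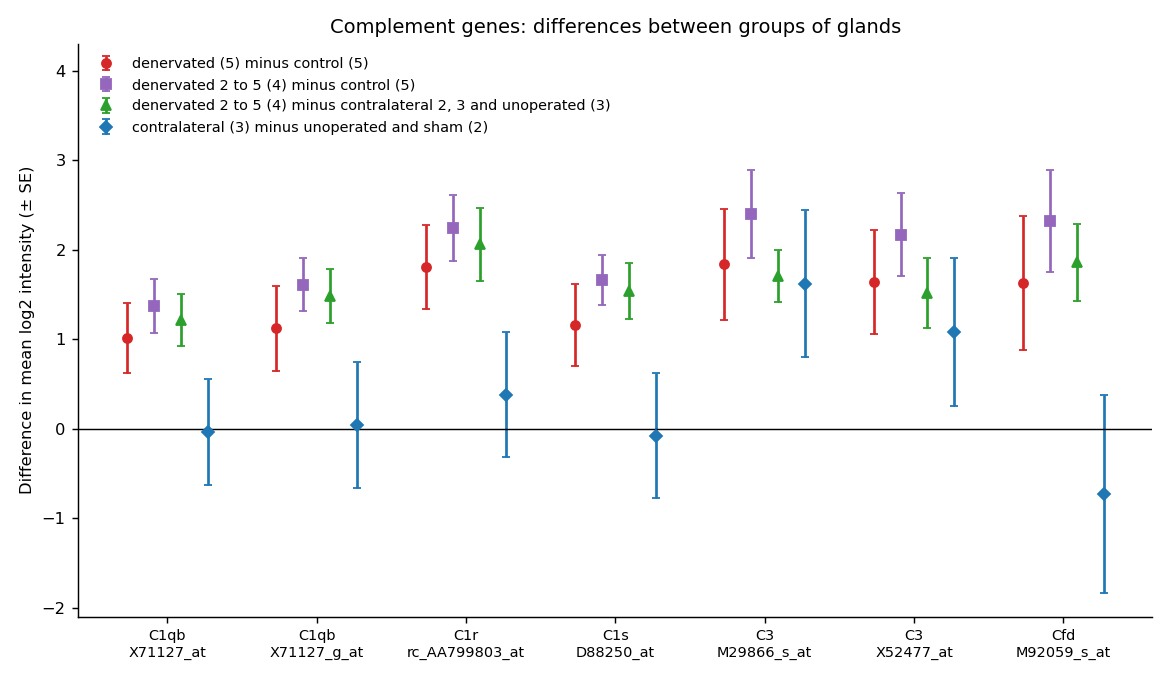
Difference in mean log2 intensity (± SE) for each complement probe set in 4 comparisons, with the number of glands in brackets and a line at 0. Differences that involve denervated glands lie from 1.01 to 2.40, those between contralateral and the unoperated and sham glands from -0.73 to 1.62.

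The members did not follow each other in every gland. Within denervated 2 to 5, glands 2 and 5 exceeded glands 3 and 4 by 1.29 for C1r, 0.76 for C1s and 1.40 for Cfd in mean log2 intensity. C1qb differed by 0.15 and -0.14 between these pairs of glands, and C3 by -0.16 and -0.85, with denervated 5 the dimmest of the 4 at both C3 probe sets. Haemoglobin beta, Hbb, was 222087 and 253653 in denervated 2 and 5 against 29222 to 32759 in the other denervated glands, and the matrix protein gene Mgp 45468 and 36911 against 4346 to 9176. Not all such genes did so. The matrix gene Sparc went the other way, with 18286 and 21781 against 79462 to 147969. The red blood cell gene Slc4a1 overlapped, with 1634 and 3412 against 1241 to 3143. In control glands Hbb ran from 17361 to 113965. It was highest in contralateral 3, where C1r, C1s and Cfd had 1841, 1612 and 1358. The part of blood and stroma in the C1r, C1s and Cfd levels of denervated 2 to 5 was not tested. Groups of glands here were picked after the values were seen.

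By gland, Pearson's correlation of log2 intensity over the 10 glands was 0.917 between C1r and C1s and 0.940 between C1qb (X71127_at) and Cfd, and lowest, 0.661, between C3 (M29866_s_at) and Cfd. The 2 probe sets of C1qb correlated at 0.938 and those of C3 at 0.948. These values contain the difference between groups on which the members were chosen, so they say little about glands of 1 group. Among the controls, for example, C1s was highest in the unoperated gland, where C1r was lower than in all controls but contralateral 1.

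Genes with the most similar pattern were taken as the 3 with the highest Pearson correlation to each member's brightest probe set over the 10 glands, so the likeness includes the split between denervated 2 to 5 and the rest. For C1qb these were Sparcl1, a matrix protein gene (0.958), the water channel Aqp1 (0.942) and vimentin, Vim, an intermediate filament of mesenchymal cells (0.941). For C1r they were annexin A2, Anxa2 (0.979), apolipoprotein E, Apoe (0.970), and the ATP synthase inhibitor Atp5if1 (0.968). C1s was closest to the protease inhibitor cystatin C, Cst3 (0.953), the myosin light chain Myl12a (0.945) and the interferon-induced Ifitm3 (0.941). C3 was closest to Itm2b (0.960), the kinase Sgk1 (0.956) and the macrophage receptor Sirpa (0.948), and Cfd to galectin 1, Lgals1 (0.959), Mia (0.952) and Vim (0.952). Apoe had 22032 to 74876 in control glands, 39759 in denervated 1 and 139885 to 284836 in denervated 2 to 5, the same split of glands as C1r.

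Other complement genes were higher in some cases and lower in others. Of 46 listed components, regulators and receptors 20 had a probe set with a single symbol and 13 genes passed the filter on dim probe sets, with 16 probe sets. After denervation 9 probe sets had a higher mean and 7 a lower one. Their median log2 difference was 0.14, against -0.08 and 44.6% higher over all probe sets. By limma 0 of 16 passed, as did 0 of all 6118 (0%), while 9.68% of all probe sets, and 2 of the 16 (both higher), had an unadjusted p under 0.05. Without denervated 1 again 0 of 16 passed, against 1.14% of probe sets in either direction, and 4 of the 16 (3 higher, 1 lower) had an unadjusted p under 0.05, against 18.1% of all probe sets. Without the 3 Dnase1-rich glands 11 of 16 had a higher mean, with a median of 0.30, against 46.8% and -0.05 over all probe sets.

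Among the initiating components, C1qc, which encodes the C chain of C1q, differed by 0.06 ± 0.35 (SE) at its probe set rc_AA891576_s_at. This probe set had 4675, 4089, 2983, 1693 and 3288 in denervated glands 1 to 5. It had 5494, 2070 and 2205 in contralateral glands, 2548 in the unoperated and 4038 in the sham gland, so the groups overlapped throughout. Another C1qc probe set, rc_AA891576_r_at, differed by 0.96 ± 0.74 (SE), with 4 of 10 glands at the floor. These probe sets differed by 0.34 ± 0.35 and 1.43 ± 0.82 without the 3 Dnase1-rich glands. Contralateral 1 and sham minus the other controls was 1.06 at rc_AA891576_s_at and 0.05 at rc_AA891576_r_at, against -0.4 and -0.31 for C1qb. A further C1qc probe set, rc_AA891576_i_at, was too dim to be tested, with 7 of 10 glands at the floor. Masp1, a protease of the lectin pathway, had 2080, 183, 968, 139 and 72.4 in denervated glands against 1175, 1332 and 1490 in contralateral glands, 1144 in the unoperated and 498 in the sham gland. Its difference was -1.44 ± 0.73 (SE, limma adjusted p = 0.539), denervated 1 was its brightest gland, and denervated 4 and 5 were below the floor. It differed by -2.36 ± 0.72 without the 3 Dnase1-rich glands. Properdin, Cfp, which stabilises the alternative pathway enzyme, differed by -0.58 ± 0.45 (SE) at rc_AI639534_g_at, and by -0.75 ± 0.54 without those glands. Its other probe set, rc_AI639534_at, was too dim to be tested and pointed the other way, with 412 to 727 in denervated 2 to 5, 101 in denervated 1 and 35.4 to 192 in controls. The terminal component C9 differed by -0.23 ± 0.76, and by 0.64 ± 0.90 without the 3 glands.

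Of the regulators, Serping1, which encodes the C1 inhibitor that inactivates C1r and C1s, was also brightest in denervated 2 to 5. It had 1536, 4668, 5421, 3182 and 8457 in denervated glands, 955, 2272 and 1564 in contralateral glands, 1208 in the unoperated and 3135 in the sham gland. Denervated 2 to 5 lay above all controls, denervated 4 barely above the sham gland, and the difference was 1.27 ± 0.45 (SE, limma adjusted p = 0.438), or 1.65 ± 0.37 without the 3 Dnase1-rich glands. C4bpb, part of the C4b-binding protein, differed by 1.17 ± 0.50 (adjusted p = 0.469 from limma), and by 1.21 ± 0.62 without them. Clu differed by 1.10 ± 0.81, and by 0.51 ± 0.43 without them. Cr1l, a membrane regulator of C3 cleavage, differed by 0.50 ± 0.31 and 0.23 ± 0.23 at its probe sets, and by 0.26 and 0.03 without them. Among receptors, C5ar1 differed by 0.47 ± 0.54 and -0.06 ± 0.41 at its probe sets, and Itgam, a chain of complement receptor 3, by -0.61 ± 0.54. Without the same glands these values were 1.03 ± 0.62, 0.25 ± 0.47 and -0.63 ± 0.68.

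**Figure D3:**
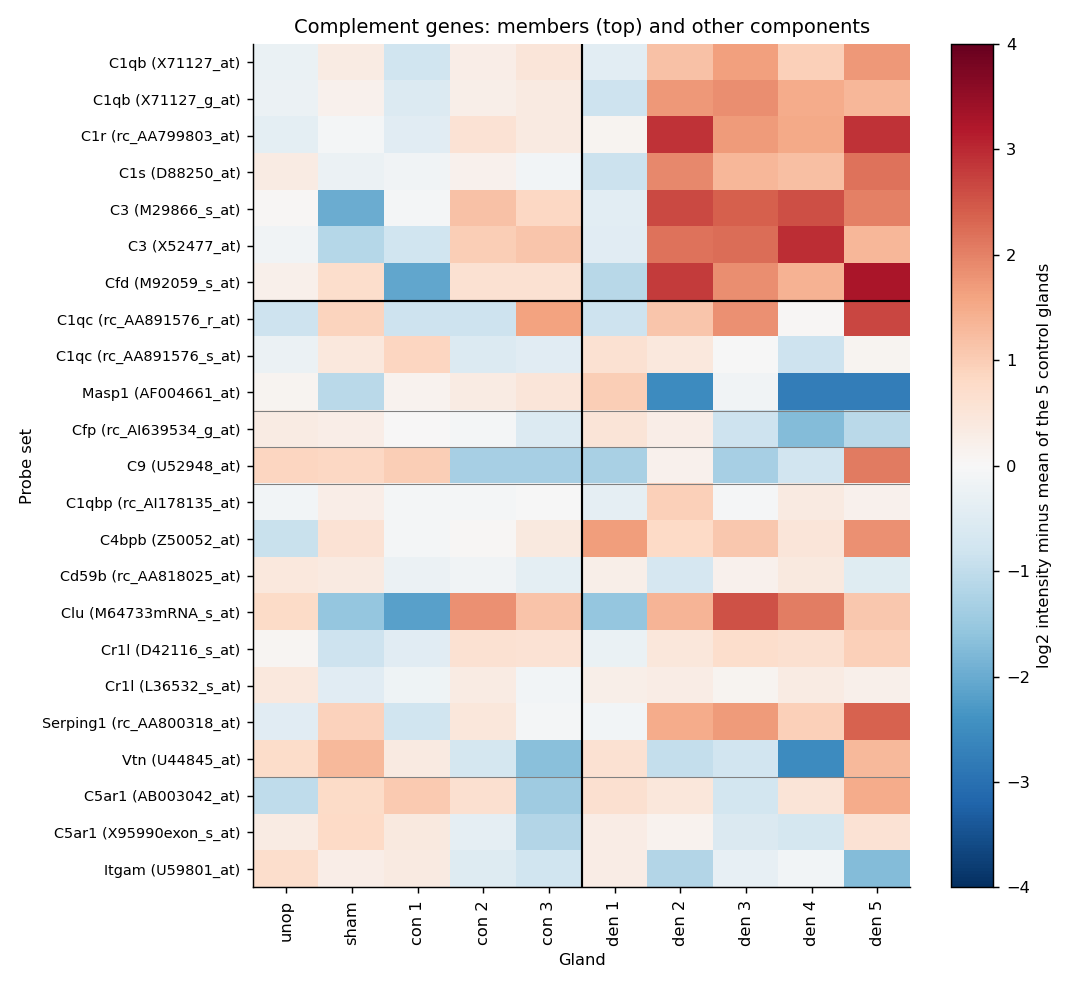
Log2 intensity minus the mean of the 5 control glands, in colour, for the 7 member probe sets (above the thick line) and 16 probe sets of other complement genes grouped by role, in each gland. Denervated 2 to 5 are red for all members and for Serping1, while Masp1 is blue in denervated 2, 4 and 5. Denervated 2 to 5 also lie above the control mean, in part only slightly, for Clu, C4bpb, Cr1l and C1qc at rc_AA891576_r_at.

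Inducers of complement genes were examined as 15 tested genes for cytokines, their receptors and transcription factors. The mean was higher after denervation for 10, with a median difference of 0.08, against 44.6% and -0.08 over all probe sets. By limma 0 passed, and 3 of 15, all higher, had an unadjusted p under 0.05, against 5.02% of all probe sets that were higher at that p. Irf8, a regulator of macrophage genes, differed by 1.55 ± 0.59 (SE), Nfkb1 by 1.05 ± 0.41 and Cebpb, a factor that binds the C/EBP site, by 1.01 ± 0.36. Cebpb had 2495, 7730, 5380, 5181 and 4572 in denervated glands 1 to 5, 1426, 3316 and 3112 in contralateral glands, 3460 in the unoperated and 1452 in the sham gland. Its relatives Cebpa and Cebpd had differences of -1.11 ± 0.56 and -0.73 ± 0.46. The cytokines Il6, Tnf and Ifng were too dim to be tested, and Il1b differed by -0.04 ± 0.68. Without the 3 Dnase1-rich glands 11 of 15 inducers had a higher mean, with a median of 0.14, against 46.8% and -0.05 over all probe sets. Cebpb then differed by 0.77 ± 0.26, Nfkb1 by 0.63 ± 0.26, Irf8 by 1.42 ± 0.62, Cebpa by -1.52 ± 0.59, Cebpd by -0.52 ± 0.35 and Il1b by 0.12 ± 0.84.

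Markers of the cell types that make complement differed between the groups to different degrees. In whole glands, more cells of a type and more RNA per cell cannot be told apart. By limma 0 genes of these marker lists passed between denervated and control glands, as did 0 of all 6118 probe sets. Over all probe sets 44.6% had a higher mean, with a median difference of -0.08. Without the 3 Dnase1-rich glands these were 46.8% and -0.05. Macrophage genes had a higher mean in 8 of 10 tested cases (median difference 0.53). Their summed intensity, to which Apoe gave 22032 to 284836, was 82314 to 352840 in denervated and 50545 to 144901 in control glands, with 4 of 5 denervated glands above all controls and denervated 1 within the control range. Of the defining markers, Aif1 differed by 1.63 ± 0.55 (SE), Csf1r was dim in every gland (138 to 458), and Cd68 and Cd163 were not analysed here. Cyba, a subunit of the phagocyte oxidase, differed by 2.08 ± 0.69 and Apoe by 1.78 ± 0.50. The genes with a lower mean were Ptprc at -0.24 ± 0.69 and Itgam at -0.61 ± 0.54. Without the 3 Dnase1-rich glands 9 of 10 macrophage genes had a higher mean (median 0.59), with Aif1 at 2.28 ± 0.63, Cyba at 2.21 ± 0.56 and Apoe at 1.75 ± 0.39. Ptprc was then 0.24 ± 0.70 and Itgam -0.63 ± 0.68.

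For fibroblast and matrix genes the mean was higher in 11 of 13 cases, and the median difference was 1.35. Sparc and Thy1 had a lower mean, at -0.53 ± 0.56 and -0.47 ± 0.74 (SE). The 13 genes summed to 145157 to 638194 in denervated and 110760 to 200579 in control glands, again with denervated 1 inside the control range. To these sums Dcn gave 31266 to 393285 in denervated glands and 29329 to 38659 in controls. Sparc gave 18286 to 147969 in denervated glands and 32200 to 143407 in controls. The collagens Col1a1 and Col3a1 both differed by 1.65, with SE of 0.75 and 0.76, decorin, Dcn, by 1.35 ± 0.49 and the growth factor receptor Pdgfra by 1.15 ± 0.32. Without the 3 Dnase1-rich glands 11 of 13 again had a higher mean (median 1.65), with Col1a1 at 2.51 ± 0.67, Col3a1 at 2.72 ± 0.75, Dcn at 1.65 ± 0.55 and Pdgfra at 1.31 ± 0.35. Sparc was then -1.06 ± 0.66 and Thy1 -0.28 ± 0.83. The part of macrophages and fibroblasts in the complement values was not tested.

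Adipocyte markers, of interest for Cfd, had 4 of 7 tested genes with a higher mean and a median difference of 0.07. They summed to 22750 to 32397 in denervated and 21509 to 25224 in control glands. The highest sum was that of denervated 1, where Cfd was low, and Lep gave 10415 and Acsl1 12436 of it. Single genes differed from the sum. Lpl had 839, 6118, 1248, 1631 and 5738 in denervated glands 1 to 5 and 743 to 1782 in controls. Fabp4 had 88.9, 461, 849, 831 and 1120 in denervated glands and 91.7 to 552 in controls. Lep differed by 0.07 ± 0.37, Plin1 was at the floor in 7 of 10 glands, and Adipoq was not analysed here. The part of adipocytes in the Cfd values was not tested. Liver and plasma protein markers were lower at all 7 tested genes, with a median of -0.90 and sums of 52818 to 151594 in denervated against 65064 to 245886 in control glands. Most of these sums came from Serpina1 alone, with 50095 to 149136 in denervated and 62546 to 236521 in control glands. Albumin, Alb, differed by -0.11 ± 0.59, Fgb by -1.32 ± 0.62 and Ttr by -1.66 ± 0.75. Without the 3 Dnase1-rich glands the adipocyte median was 0.28 (4 of 7 higher) and the plasma protein median -0.69 (1 of 7 higher), with Fabp4 at 1.71 ± 0.66, Lep at 0.28 ± 0.36, Alb at 0.39 ± 0.65, Fgb at -1.72 ± 0.68 and Ttr at -1.44 ± 0.69. Of 3 red blood cell genes 2 had a higher mean, or 3 of 3 without those glands, and their sum put 2 of 5 denervated glands above all controls.

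**Figure D4:**
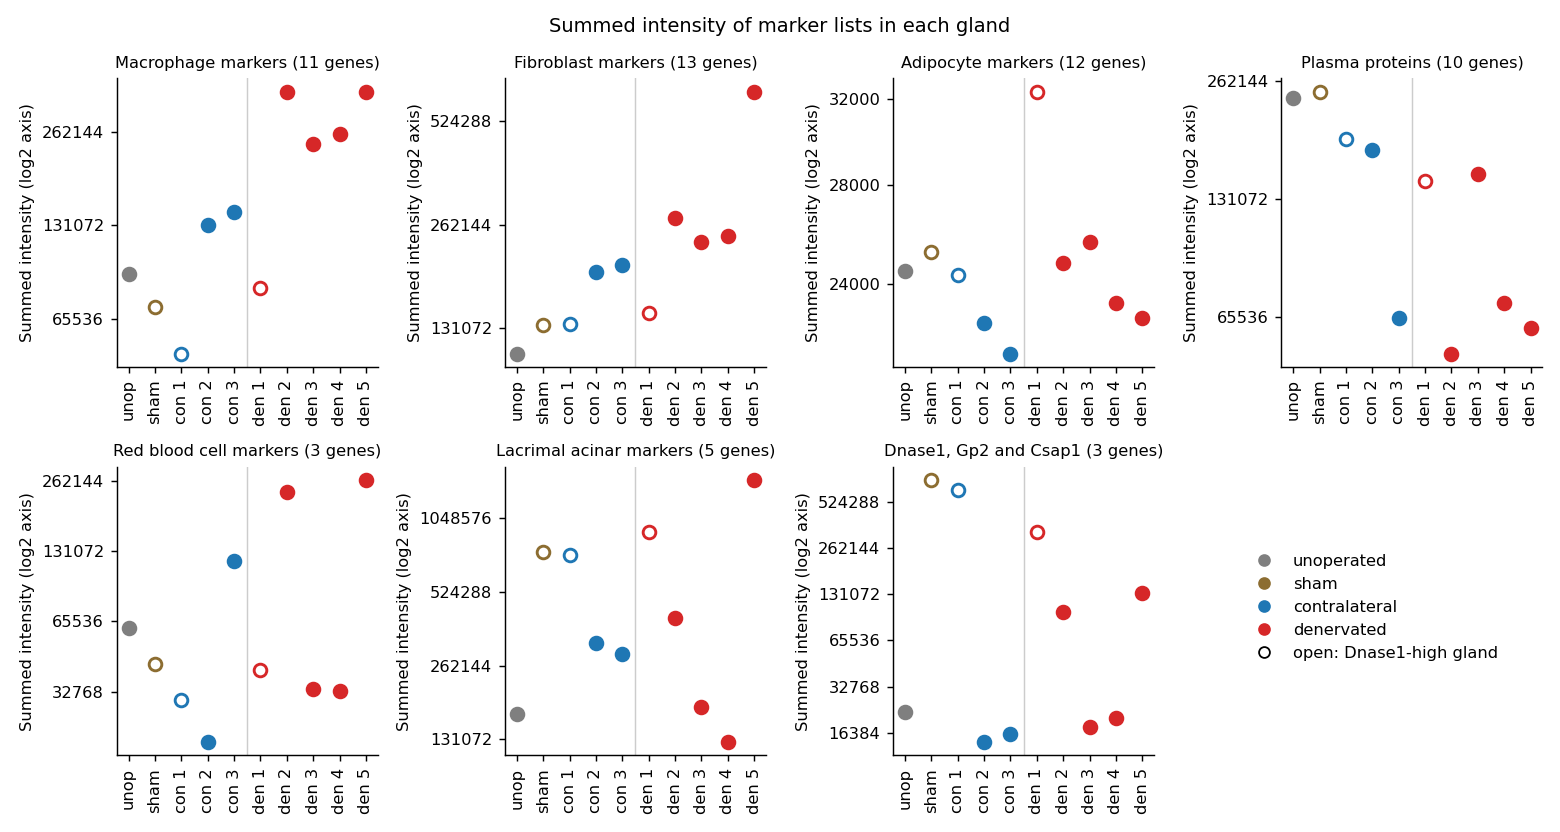
Summed intensity (log2 axis) of each marker list in each gland, taking the brightest probe set per gene, with 1 point per gland and open points for the Dnase1-rich glands. Macrophage and fibroblast sums put denervated 2 to 5 above all controls, and adipocyte sums are highest in denervated 1. Plasma protein sums, mostly Serpina1, put no denervated gland above all controls.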

How the data were processed

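For each of 8799 probe sets the authors deposited a linear intensity on every array, and their software is not given in the sources used here. The values had been scaled by the authors: means with 2% trimmed at each end ran from 2505 to 2507 over the arrays, so the scaling was kept. Intensities were floored at the 20th percentile of all values, 156.2, and log2 was taken. After removal of 59 array controls, the 6118 of 8740 probe sets whose mean log2 intensity was above the 30th percentile were tested. All 7 member probe sets passed, none at the floor in any gland.

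Differences were fitted over all 6118 probe sets with limma 3.58.1 in R 4.3.3 (variance trend, two-sided, Benjamini-Hochberg threshold 0.05), denervated against control glands in a fit of 2 classes, and the other comparisons in a fit of 3 classes (denervated, contralateral, unoperated with sham). An SE comes from that fit. The script was tested on simulated data. Symbols came from the platform annotation, and no gene was named from the 308 probe sets that carry several symbols or the 1426 that carry none. Precision is limited by how few arrays there are: the median SE of denervated minus control was 0.504.

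The members, lists, tests and alternatives were chosen with earlier results of these data known. Of the other complement genes, those that differed by at least 1 on the log2 scale were named, or the 6 largest where fewer did; of each marker list, the defining markers and up to 3 with the largest difference; for each member, the 3 genes with the most similar pattern. Cfp, C9, Cr1l, C5ar1, Sparc, Thy1, Acsl1, Ptprc and the inducers fall outside this rule and were named after their values were seen. Alternatives were other scalings, floors, filters and variance models, array weights, blocks and leaving out glands. Figures were drawn with matplotlib 3.10.9.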

Additional observations from a re-analysis of the deposited data

Results flagged for a closer look

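A check for a gland far from the rest of its group was made 14 times, for 7 probe sets in denervated and in control glands, and found 3 values on 2 glands. Denervated 1 stood far below the other denervated glands for C1qb at X71127_g_at (log2 intensity 9.53) and for C3 at M29866_s_at (11.93). The genes were chosen because they were higher once denervated 1 was left out, so these low values restate that choice. Contralateral 1 stood far below the other control glands for Cfd (7.72). Both glands are Dnase1-rich. Such a check marks about 1 in 20 groups by chance, a rate that cannot be read against genes chosen in this way or against probe sets that move together.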

How the results depend on the processing

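Each member stayed higher in denervated than in control and than in contralateral glands under all alternatives run. The members were chosen for being higher in these same denervated glands, so the kept direction is no independent check. Median scaling moved the median difference of all probe sets from -0.08 to 0.04. The count of members at least 1 higher on the log2 scale, 7 of 7, was less stable. The share over all probe sets was taken for the main fits only, so these counts cannot be set against it. With a block for the 3 Dnase1-rich glands it was 4 against all controls and 3 against contralateral glands. Leaving out each gland gave 4 to 7 and 3 to 7, lowest without denervated 2 and without contralateral 1. Without denervated 1 it was 7 under every alternative run, on the values that the choice of members used. Same-numbered contralateral and denervated glands correlated at 0.488, 0.0369 and 0.164 in their deviations from group means. Glands of different number ran from -0.336 to 0.232. The 0.488 lay between contralateral 1 and denervated 1, both Dnase1-rich, so these values cannot settle whether the numbers mark pairs. The numbers were not taken as pairs. A replicate block over numbers 1 to 3 gave a count of 2 of 7, in 1 fit of contralateral and denervated glands 1 to 3 that serves both comparisons. In that fit C3 differed by 0.89 and 0.88. Limma called 0 members between contralateral and the unoperated and sham glands and 0 other complement probe sets between denervated and control glands under every alternative run. Near-zero differences between contralateral and the unoperated and sham glands turned sign. C1s was 0.16 with quantile normalization, 0.25 with median scaling and ran from -0.36 to 0.19 without 1 gland, highest without the unoperated gland. C1qb at X71127_at was 0.027, 0.29 and 0.13 with quantile normalization, median scaling and array weights, 0.66 without the 3 Dnase1-rich glands, and ran from -0.34 (without the unoperated gland) to 0.35 (without contralateral 1) without 1 gland, with 0.26 without the sham gland. C1qb at X71127_g_at was -0.15 with the block and ran from -0.15 (without the unoperated gland) to 0.32 (without contralateral 1), with -0.06 and -0.13 without contralateral 2 and contralateral 3. Cfd was 0.42 without the 3 glands and ran from -1.18 (without contralateral 3) to 0.16 (without contralateral 1). The cause was not tested.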
